A study of Mus musculus with 4 samples.

Results

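The genes described here are 10 members of the major histocompatibility complex (MHC) class I pathway: H2-K1, H2-D1, H2-T23, B2m, Tap1, Tap2, Tapbp, Psmb8, Psmb9 and Nlrc5. They were taken by symbol from the table of 22583 measured features, and each symbol matched 1 feature. The rule used no measured value, but the members were chosen with earlier results of these data known. They were followed through the epithelial cell classes, the tuft-like cells and the leukocyte-like cells of 4 single-cell RNA libraries made from mouse tracheas. The libraries came from wild-type mice and from 3 lines with primary ciliary dyskinesia, all on the 129S6/SvEvTac background and 5 to 8 months old. The bgh line carries a mutation of Spef2, the Cfap54gt/gt line is homozygous for a gene trap of Cfap54, and the nm1054 line is without Cfap221. Cells of 6 tracheas were pooled for each library, or of 5 for bgh, so 1 library stands for 1 genotype and its animals cannot be told apart. Per the labels' protocols the tracheas were digested with pronase, and plating to hold back fibroblasts and removal of dead cells followed, which can set the cell types that reach a library. The genotype behind each library number is not given in the sources used here. Libraries 1 to 4 are therefore unnamed, no mutant was compared with wild type, and no p-value is given.

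MHC class I molecules show peptides from inside the cell to CD8 T cells and are read by natural killer cells. The proteasome cuts proteins into peptides, and in cells exposed to interferon the inducible subunits Psmb8 and Psmb9 replace the constitutive Psmb5 and Psmb6 to form the immunoproteasome. The Tap1 and Tap2 pump moves peptides into the endoplasmic reticulum, Tapbp (tapasin) bridges that pump to a waiting heavy chain, and the heavy chain reaches the surface together with the light chain B2m. H2-K1 and H2-D1 are the classical heavy chains, H2-T23 is the non-classical heavy chain Qa-1, and Nlrc5 is the transactivator of class I genes. In the airway, tuft cells sense chemicals at the surface and make leukotrienes, ciliated cells move mucus, secretory cells make it and basal cells renew all of these.

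After filtering, 19471 of 21667 barcodes were kept: 3692, 3830, 6746 and 5203 in libraries 1 to 4, from libraries of 39658153 to 53491773 UMIs (unique molecular identifiers, counted transcripts). Libraries shared 52 barcode sequences, which were treated as different cells. Clusters were made without the members and named from fixed markers, hence "-like": 4757 ciliated-like, 6364 secretory-like, 5056 basal-like, 170 hillock-like, 151 tuft-like and 78 leukocyte-like cells, the last being 41 T cell-like and 37 macrophage- or monocyte-like cells. The tuft-like clusters had 9 of 9 tuft markers up, the ciliated-like clusters 8 of 8, the secretory-like clusters 6 or 7 of 8 and the basal-like clusters 5 or 6 of 7. The secretory-like class takes in clusters led by goblet and gland genes, and 2345 cells in clusters that carried markers of another lineage as well, among them every cluster led by neuroendocrine markers and 5 further clusters with all tuft markers up, were left out. Levels are CPM, the UMIs of a gene scaled to a common total for each class and library, with exact Poisson 95% intervals that cover counting error only. The reads come from the 3' ends of transcripts, so levels were compared between classes and not between genes.

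The members differed widely in how many transcripts were counted. H2-K1 had 75428 UMIs in the kept cells, H2-D1 58171, B2m 28126, Tapbp 8732, H2-T23 4008, Psmb8 3779, Tap2 2402, Psmb9 860 and Tap1 549. Nlrc5 had 34 UMIs in all, was at 0 in the tuft-like and hillock-like cells of every library, and did not reach the minimum of 50 UMIs in any comparison. The other 9 members are therefore counted below, and Nlrc5 is described by its values only. H2-T23 counts are less certain than the others, since 28.7% of the 60-base windows in the last 400 bases of its transcript also occur in other genes; for H2-D1 the share was 6.45% and for the other members it was 0.

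Among the 6 classes above, the classical heavy chains were highest in leukocyte-like, tuft-like and ciliated-like cells. In 40 ionocyte-like cells, which are in no comparison, H2-K1 ranged from 478 to 1625 CPM and H2-D1 from 357 to 975 CPM. H2-K1 was at 746, 701, 695 and 903 CPM in the ciliated-like cells of libraries 1 to 4, at 357, 369, 324 and 391 CPM in the secretory-like cells and at 399, 408, 371 and 350 CPM in the basal-like cells. Every ciliated-like value lay above every secretory-like and basal-like value, and the latter classes overlapped. The tuft-like cells had 555, 793, 547 and 776 CPM of H2-K1 and the leukocyte-like cells 863, 1335, 823 and 1398 CPM, ranges that overlapped the ciliated-like one. In cells thinned to 1000 UMIs each, an H2-K1 transcript was seen in 47.9% to 52.5% of ciliated-like cells, 27.7% to 32.2% of secretory-like cells and 27.1% to 35.4% of basal-like cells, shallower cells being left out. Without thinning the order turned, with 69.5% to 78.7% of ciliated-like and 89.2% to 94.2% of secretory-like cells, whose median depths were 2532 and 10795.5 UMIs. No class here is known to lack class I transcripts, so the part of free RNA in these shares could not be read from one.

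H2-D1 followed the same classes with another order at the top. It was at 603, 574, 443 and 733 CPM in ciliated-like, 272, 242, 230 and 338 CPM in secretory-like and 329, 302, 268 and 366 CPM in basal-like cells. In tuft-like cells it reached 1026, 1068, 856 and 1119 CPM, above every ciliated-like value, and in leukocyte-like cells 863, 1464, 747 and 1493 CPM. The hillock-like cells had 611, 435, 409 and 515 CPM, above every basal-like value and overlapping the ciliated-like range.

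The stretches before the start sites of H2-K1 and H2-D1 are shown because the balance of these 2 genes was alike in the large classes and shifted in tuft-like cells. They are the 250 bases upstream of a RefSeq start on GRCm38.p6, not the GRCm39 build of the count files, and come from the reference strain, not from the 129 animals. H2-K1 lies at chr17:34000348-34000597 on the minus strand and H2-D1 at chr17:35262844-35263093 on the plus strand. Both are written 5' to 3' in the direction of transcription, with motif matches in capitals.
H2-K1: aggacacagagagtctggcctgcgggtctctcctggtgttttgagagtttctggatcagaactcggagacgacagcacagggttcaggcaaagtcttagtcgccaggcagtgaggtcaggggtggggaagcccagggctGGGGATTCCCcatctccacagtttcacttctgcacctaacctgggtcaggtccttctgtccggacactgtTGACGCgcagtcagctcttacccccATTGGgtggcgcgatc
H2-D1: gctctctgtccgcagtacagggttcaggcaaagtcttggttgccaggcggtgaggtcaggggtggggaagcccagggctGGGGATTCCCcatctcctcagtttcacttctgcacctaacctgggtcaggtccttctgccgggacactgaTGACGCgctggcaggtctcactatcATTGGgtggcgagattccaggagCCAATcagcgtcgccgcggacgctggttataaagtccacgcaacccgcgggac
Each holds GGGGATTCCC, a match to the kappa B motif (GGG, any 2 bases, TTCCC), as well as TGACGC, the X2 or CRE-like box, and ATTGG, the inverted CCAAT box, in the same order. The H2-D1 window holds a further CCAAT. The kappa B match lies 101 bases before the H2-K1 start used, the farther upstream of 2, and 161 bases before the H2-D1 start. The H2-K1 window ends 11 bases after its ATTGG, so the place of the further CCAAT was not searched in H2-K1, and no difference between the promoters is read from it. Motifs were searched on both strands, and none of these matches overlap. The kappa B motif is in 1.53% of 32851 such windows before RefSeq starts, TGACGC in 6.12% and CCAAT in 33.8%. The stretches of the 2 genes aligned over 177 bases with 91.0% identity. A match describes the letters in these windows and is not evidence of binding.

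B2m encodes the light chain that all class I heavy chains need. It was at 302, 246, 147 and 359 CPM in ciliated-like, 159, 143, 116 and 161 CPM in secretory-like and 143, 139, 138 and 150 CPM in basal-like cells. Library 3 had the lowest value in each of these classes, and its ciliated-like value lay within the secretory-like range. The tuft-like cells had 132, 138, 153 and 213 CPM, a range that overlapped the secretory-like and basal-like ones, whereas the leukocyte-like cells had 1006, 1335, 747 and 1564 CPM, above every epithelial value. Its upstream stretch, chr2:122147437-122147686 on the plus strand of GRCm38.p6, is shown for the match GAAACTGAAA to the core of the interferon-stimulated response element (GAAA, any 2 bases, GAAA), which 2.98% of the 32851 windows hold.
B2m: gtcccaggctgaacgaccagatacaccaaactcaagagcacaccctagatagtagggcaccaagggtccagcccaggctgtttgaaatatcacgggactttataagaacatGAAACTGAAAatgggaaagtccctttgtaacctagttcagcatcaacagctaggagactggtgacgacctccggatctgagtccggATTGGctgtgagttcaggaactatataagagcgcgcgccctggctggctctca
Its second run of capitals is an inverted CCAAT box. The only other member window with a match to that core, on the reverse strand, was that of H2-T23. The gamma-activated sequence (TTC, any 3 bases, GAA), in 7.02% of windows, was matched in that of Psmb8.

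**Figure D1:**
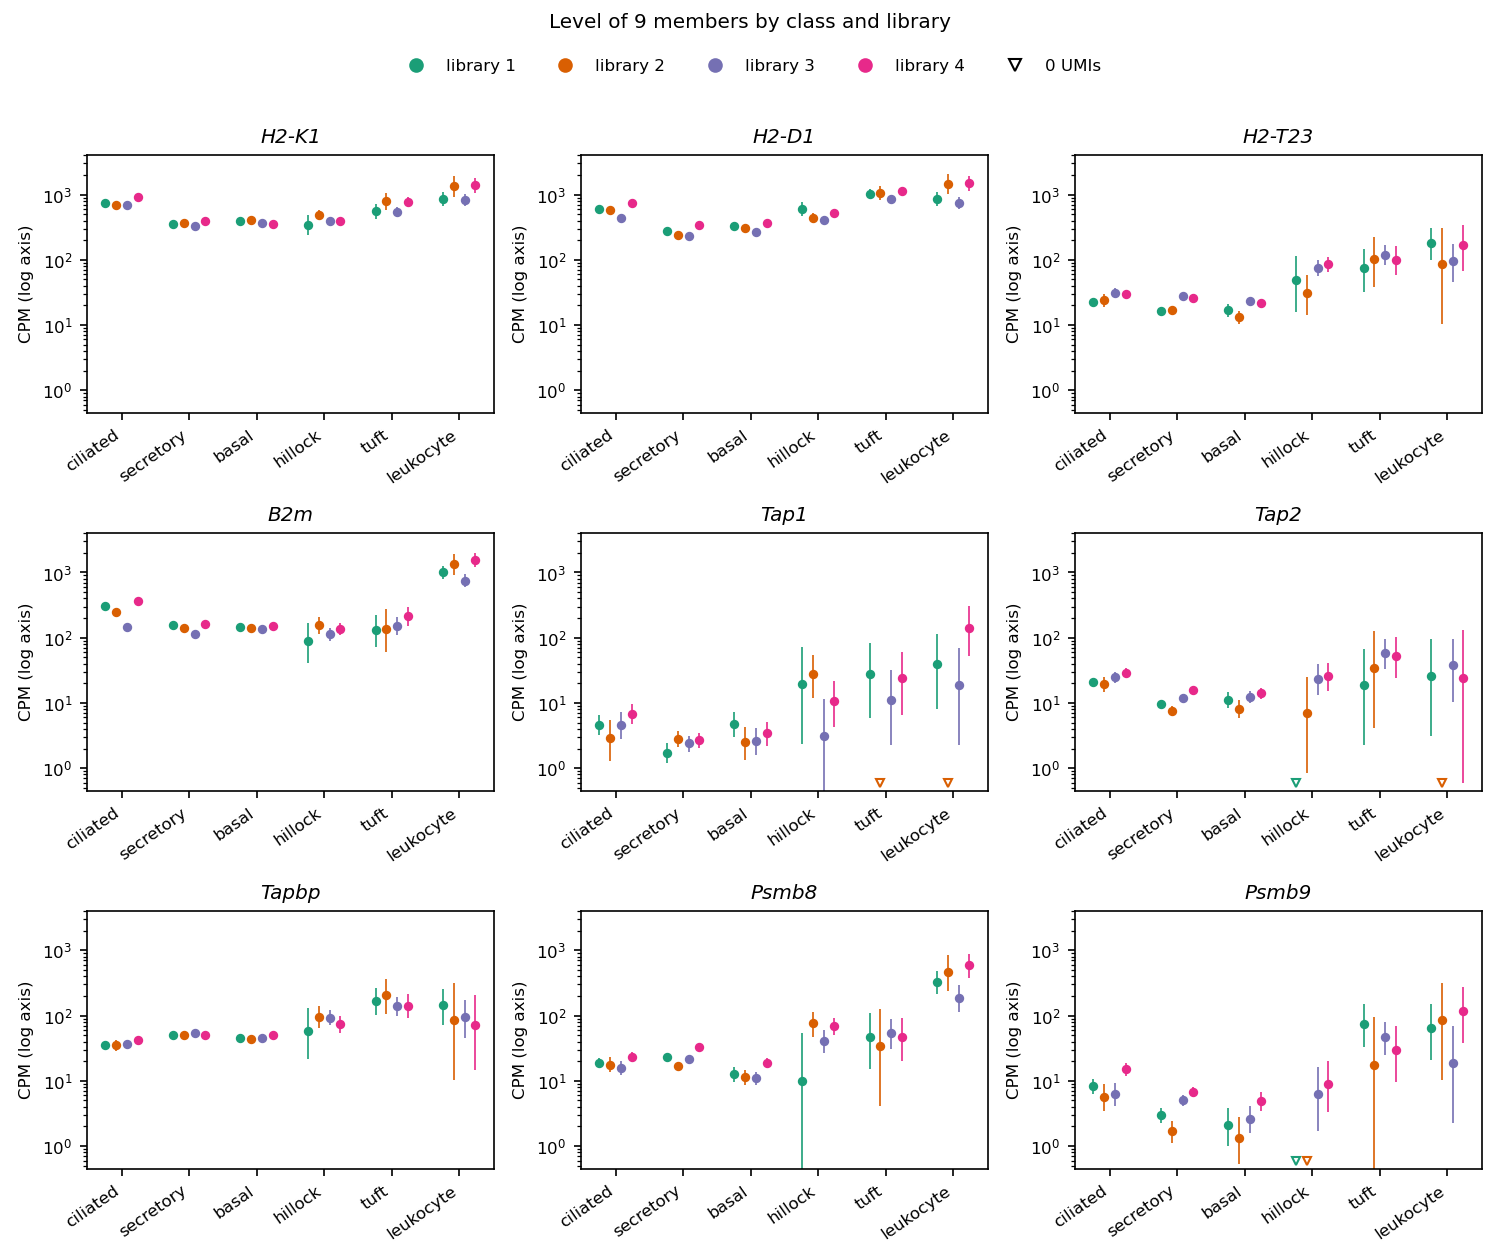
Level of 9 members (Nlrc5 is left out) in CPM on a log axis, by cell class; each point is 1 library, bars are exact Poisson 95% intervals cut off at the axis, and open triangles mark 0 UMIs. The ciliated-like points of H2-K1 sit between 695 and 903 CPM, above all secretory-like and basal-like points, and the B2m and Psmb8 points of leukocyte-like cells stand above all others.

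Ordered by the median over libraries among these 6 classes, 8 of the 10 members were highest in leukocyte-like cells, and Tap2 and Tapbp in tuft-like cells. Of these 8 only B2m and Psmb8 did not overlap the next class, and in leukocyte-like cells Tap1 rested on 11 UMIs and Nlrc5 on 2. For Tapbp the order was tuft-like (156 CPM), leukocyte-like (90.3), hillock-like (83.7), secretory-like (51.1), basal-like (45.4) and ciliated-like (35.9), and from the hillock-like cells down no neighbours overlapped. Psmb8 ran from leukocyte-like (400.2 CPM) through hillock-like (55.4), tuft-like (47.2), secretory-like (22.2) and ciliated-like (18.4) to basal-like cells (12.1), and only the step below the leukocyte-like cells and that between tuft-like and secretory-like cells lay outside the spread of libraries. All neighbours of Tap2 overlapped, from 43.9 CPM in tuft-like to 10.8 CPM in secretory-like cells.

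Ciliated-like cells were next compared with secretory-like cells of the same library, as the log2 ratio of CPM + 1. A gene was counted as higher or lower where all 4 libraries had the same direction. Of 9 tested members 7 were higher and 1 was lower, beside 69.7% and 12.5% of all 12000 genes tested, so the members' count is near the background. The median was 0.88 for the members and 0.75 for all genes. H2-D1 had a median of 1.13 (0.94 to 1.24 over libraries), H2-K1 1.08 (0.92 to 1.21), Psmb9 1.14 (0.27 to 1.32), Tap2 1.00 (0.87 to 1.27) and B2m 0.85 (0.35 to 1.15). Tap1, at 0.88, ranged from 0.01 to 1.09, and H2-T23 was at 0.31. Tapbp was the member that fell in ciliated-like cells, by 0.53 on the log2 scale, with 35.1, 34.9, 36.6 and 41.6 CPM against 50.7, 51.2, 54.2 and 51.0 CPM in secretory-like cells. Psmb8 differed in direction between libraries, from -0.52 to 0.07.

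Most of these ratios depend on what the total is made of. In secretory-like cells 20 genes that each took over 1% of a class's UMIs, such as Scgb1a1 and Bpifa1, held 45.1% to 48.8% of all UMIs, against 11.4% to 14.0% in ciliated-like and 11.9% to 12.8% in basal-like cells. With a total that leaves out these genes, 3 members were higher and 3 lower in ciliated-like cells, beside 43.8% and 31.9% of genes, and the median of all genes moved from 0.75 to 0.14. H2-K1 (0.35), H2-D1 (0.43) and Tap2 (0.32) were still higher in each library. Tapbp (-1.26), Psmb8 (-1.04) and H2-T23 (-0.36) were lower in each. Among cells with at least 3000 UMIs 4 members were higher: H2-K1, H2-D1, B2m and Tap2. No share of all genes is given for that filter, so this count cannot be set against a background.

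The comparison of ciliated-like with basal-like cells was little touched by that choice, since dominant genes took like shares of these classes. In ciliated-like cells 7 members were higher and 1 was lower, with either total, beside 48.5% and 30.7% of 11766 genes with the usual total. The members' median was 0.90 and that of all genes 0.27. Psmb9 had the highest median, 1.49, with 8.28, 5.72, 6.27 and 15.3 CPM in ciliated-like cells and 2.09, 1.33, 2.63 and 4.94 CPM in basal-like cells. Tap2 was at 0.97 (0.84 to 1.15), B2m at 0.94 (0.09 to 1.26), H2-K1 at 0.90 (0.78 to 1.36) and H2-D1 at 0.90 (0.72 to 1.00). The ranges of H2-K1, H2-D1, Tap2 and Psmb9 did not overlap between these classes. B2m was close to even in library 3 only, with 147 CPM in ciliated-like and 138 CPM in basal-like cells. Psmb8 was at 0.52 and H2-T23 at 0.41, and Tapbp, at -0.31, was lower in each library.

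The place of the members between basal-like and secretory-like cells depended on the total. H2-D1, at 0.25, was the 1 member higher in basal-like cells and 3 were lower, Psmb8 at -0.80, Psmb9 at -0.38 and Tapbp at -0.20, beside 63.8% higher and 12.9% lower among 11659 genes. The median was -0.08 for the members and 0.49 for all genes. With the total that leaves out dominant genes, 0 members were higher and 8 lower, beside 29.5% and 42% of genes. The median was then -0.77 for the members and -0.12 for all genes, and H2-D1 turned to -0.49. The side on which H2-K1, H2-D1 and Tap2 fall between these classes therefore depends on the total, while Psmb8, Psmb9 and Tapbp were lower in basal-like cells with each.

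**Figure D2:**
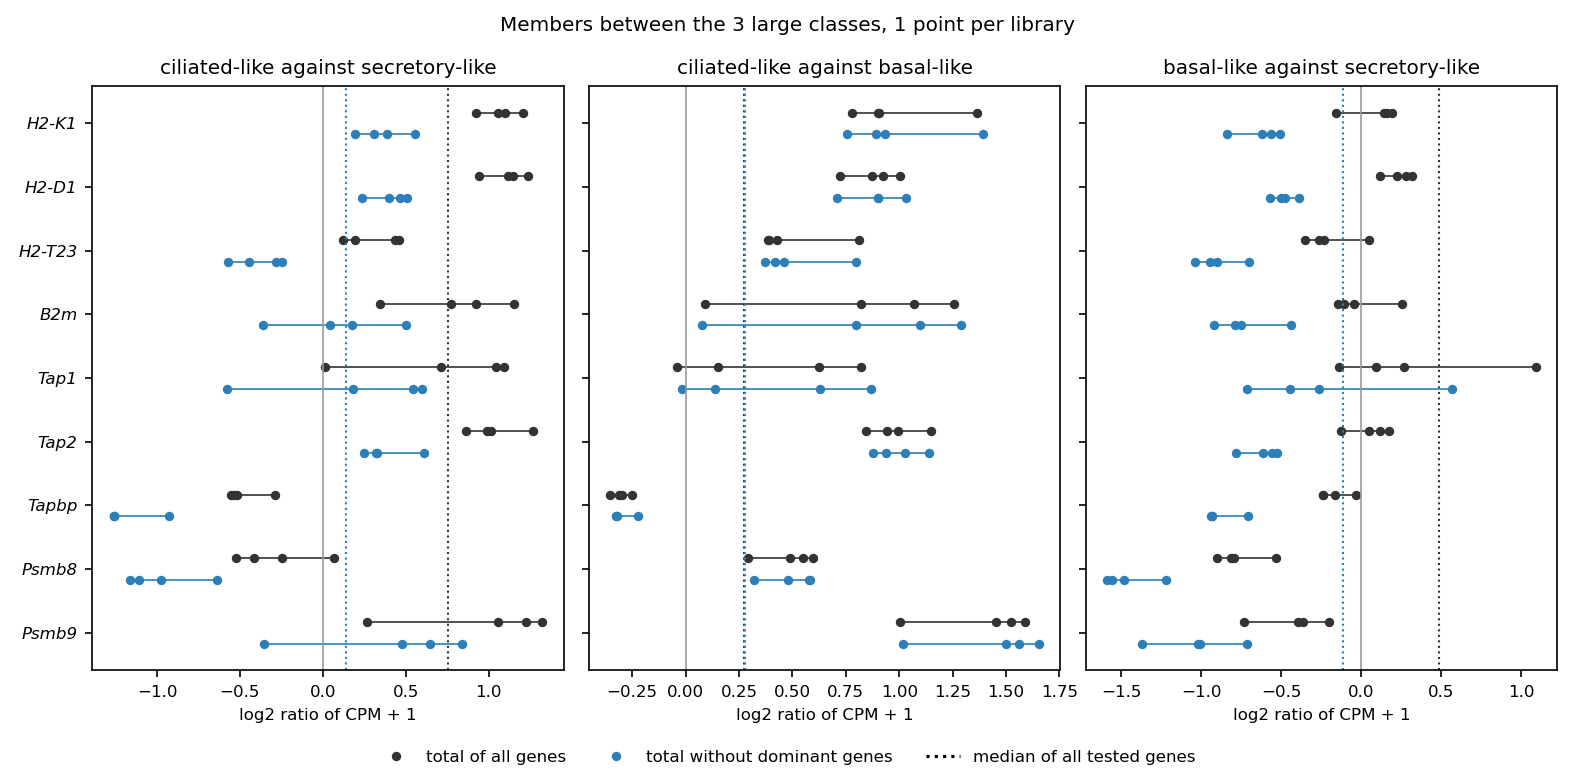
Log2 ratio of CPM + 1 for 9 members between pairs of the large classes; each point is 1 library, black for the total of all genes and blue for the total without dominant genes, and dotted lines mark the median of all tested genes. The blue points lie left of the black ones in both comparisons with secretory-like cells, and the colours coincide between ciliated-like and basal-like cells, where H2-K1 was at 0.90.

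Shares among the members' own UMIs need no total. H2-D1 made up 43.8% of H2-K1 and H2-D1 UMIs in ciliated-like cells, 45.5% in basal-like cells and 43.0% in secretory-like cells, pooled over libraries. B2m made up 16.7%, 17.05% and 18.6% of B2m, H2-K1 and H2-D1 UMIs in the same classes. Pooled over libraries, heavy and light chains thus kept near the same proportions in the 3 large classes. Single libraries moved further, from 38.9% (library 3, ciliated-like) to 51.1% (library 4, basal-like) for H2-D1. Tapbp did not: its share of Tapbp, H2-K1 and H2-D1 UMIs was 2.64% in ciliated-like cells (Clopper-Pearson 95% interval 2.46 to 2.84), 6.25% in basal-like (5.90 to 6.61) and 7.60% in secretory-like cells (7.38 to 7.83). The ciliated-like share lay between 2.48% and 3.12% in the 4 libraries, below the lowest share of either other class, 5.74%. The share of H2-T23 among the 3 heavy chains was 1.88% in ciliated-like, 2.71% in basal-like and 3.41% in secretory-like cells.

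Tap1 and Psmb9 are neighbours on chromosome 17 and are transcribed away from each other, and the next genes are Psmb8 and Tap2. The windows before the 2 starts share 225 bases, chr17:34187331-34187555 on GRCm38.p6, shown on the plus strand, the strand of Tap1, with a CCAAT box in capitals.
Tap1-Psmb9 shared stretch: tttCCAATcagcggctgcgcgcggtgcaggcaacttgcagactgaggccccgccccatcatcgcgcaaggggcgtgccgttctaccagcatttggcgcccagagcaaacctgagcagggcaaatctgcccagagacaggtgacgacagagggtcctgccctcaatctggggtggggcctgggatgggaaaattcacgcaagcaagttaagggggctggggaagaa
Psmb9 made up 65.3% of Psmb9 and Tap1 UMIs in ciliated-like cells (59.4 to 70.9) and 64.1% in secretory-like cells (59.8 to 68.2). In basal-like cells the share was 47.4% (39.2 to 55.6), and in tuft-like cells it was 73.0% of only 37 UMIs. The pooled balance was thus near even in basal-like cells and on the side of Psmb9 in the other large classes. Libraries spread widely, from 30.3% to 59.0% in basal-like cells, and in secretory-like cells from 37.3% in library 2 to 63.2% to 71.7% in the others. For the pump, Tap1 was 17.3% of Tap1 and Tap2 UMIs in ciliated-like, 21.7% in basal-like and 17.4% in secretory-like cells, with overlapping intervals for ciliated-like and basal-like cells (14.2 to 20.7 and 17.6 to 26.3). No upstream sequence of Tap2 or Nlrc5 is shown.

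Tuft-like cells were compared with the mean of ciliated-like, secretory-like and basal-like CPM of the same library. Of 9 members 7 were higher in each library and 0 lower, beside 26.9% and 26.5% of 12542 genes. The median was 1.44 for the members and 0.08 for all genes. All genes include some too faint to be seen well in the 151 tuft-like cells. A comparison with genes of like UMI counts was not made. H2-T23 was at 75.3, 103, 120 and 101 CPM in tuft-like cells, above every value of the 3 large classes, with a median log2 ratio of 2.04 (1.93 to 2.46). Tapbp was at 169, 207, 138 and 142 CPM, with a ratio of 1.76 (1.56 to 2.24), and H2-D1 had a ratio of 1.40 (1.22 to 1.52). Psmb9 had a ratio of 2.66 on 1 to 13 UMIs per library, Tap2 1.44 on 2 to 16 UMIs and Psmb8 1.22 on 2 to 15 UMIs. H2-K1 was only slightly higher, at 0.37 (0.15 to 0.69), and was no longer higher in each library without the dominant genes in the total. B2m was at -0.21 (-0.61 to 0.19). Tap1 had no UMI in library 2, where 3 UMIs, the limit taken for a count of 0, are 51.7 CPM. With the total that leaves out dominant genes 6 members were higher and 1, B2m, was lower, beside 22.6% and 29.7% of genes. Each cell thinned to 1000 UMIs, or cells with at least 3000 UMIs only, left 4 members higher in each library: H2-D1, H2-T23 and Tapbp with either, Psmb8 with the first and Tap2 with the second. No share of all genes is given for these 2 settings.

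The mix of class I transcripts was another one in tuft-like cells. H2-D1 made up 60.7% of H2-K1 and H2-D1 UMIs (57.5 to 63.7), with 64.9%, 57.4%, 61.0% and 59.1% in libraries 1 to 4, and in each library this interval lay above those of the ciliated-like, secretory-like and basal-like cells. B2m made up 9.25% of B2m, H2-K1 and H2-D1 UMIs (7.59 to 11.1). In libraries 1, 2 and 4 the tuft-like interval of that share lay below those of the 3 large classes, and in library 3 it overlapped the ciliated-like one. The hillock-like cells lay between, with 53.5% for H2-D1 (50.9 to 56.0) and 12.8% for B2m (11.2 to 14.5). Their H2-T23 share among the heavy chains was 7.42%, near the 6.12% of tuft-like cells.

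**Figure D3:**
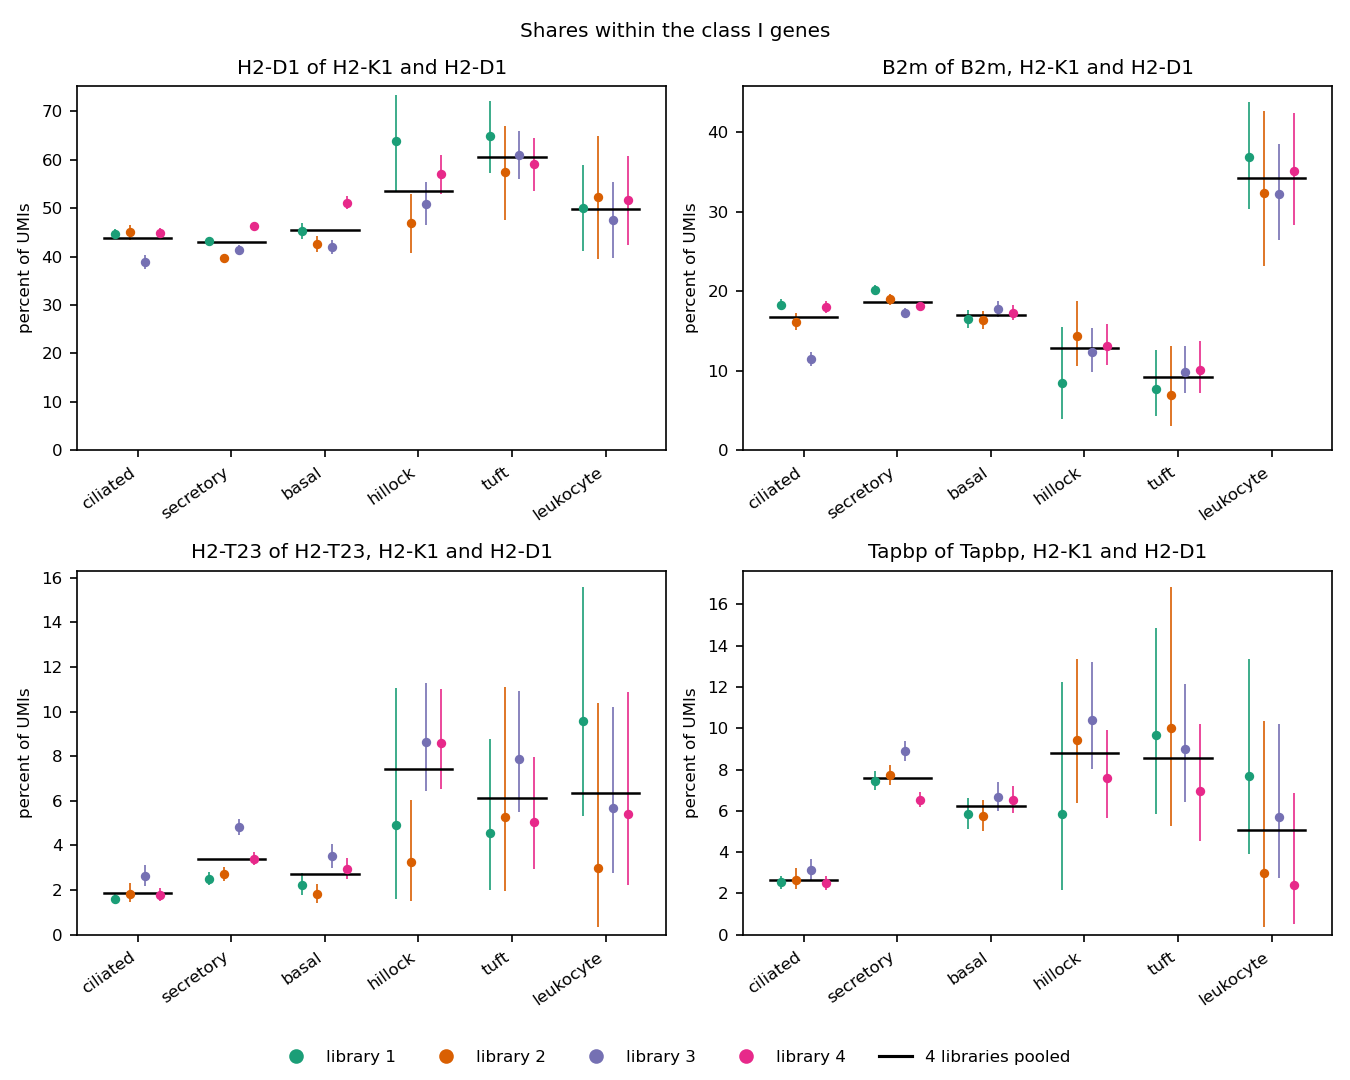
Shares of UMIs in percent for 4 groups of class I genes, by cell class; points are libraries with Clopper-Pearson 95% intervals and black lines pool the 4 libraries. Tuft-like cells have the highest H2-D1 share (60.7%) and the lowest B2m share (9.25%), leukocyte-like cells the highest B2m share (34.3%) and ciliated-like cells the lowest Tapbp share (2.64%).

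Leukocyte transcripts in the tuft-like cells were looked at, since some leukocyte markers are also made by tuft cells. Of 23 leukocyte, T cell and macrophage markers without Lyz2, 7 had a UMI in tuft-like cells and their sum was 216 to 525 CPM, against 26.3 to 137 CPM in the 3 large classes and 6582 to 13221 CPM in leukocyte-like cells. The 7 with a UMI were Ptprc, Rac2, Lcp1, Lck, Cd68, Mrc1 and Fcer1g. The others, among them Cd3d, Cd3e, Cd3g, C1qa, C1qb, C1qc, Cd52, Cd53, Coro1a and Laptm5, were at 0. Secretory markers summed to 24761 CPM in the tuft-like cells of library 2 and to 1705 to 2635 CPM in the others. Leaving out library 2 gave 8 members higher, by a looser rule over the remaining libraries for which no share of all genes is given. The part of these other transcripts in the tuft-like values was not tested further.

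The 151 tuft-like cells fell into 2 clusters, of 102 cells (cluster 9) and 49 cells (cluster 23), the latter with 0 cells in library 2. H2-K1 was at 899, 793, 785 and 868 CPM in cluster 9 and at 249, 348 and 526 CPM in cluster 23 of libraries 1, 3 and 4. H2-D1 was at 1258, 1068, 1017 and 1217 CPM in cluster 9 and at 819, 722 and 854 CPM in cluster 23. The library values of both genes did not overlap between the clusters. Their Poisson intervals did for H2-D1 in each of libraries 1, 3 and 4, and for H2-K1 in library 4. Cluster 23 had only 7 cells in library 1, 34 in library 3 and 8 in library 4. B2m had 240, 138, 248 and 219 CPM against 35.6, 73.5 and 197 CPM, ranges that overlapped, and H2-T23 had 79.9 to 192 CPM against 43.8 to 71.2 CPM. Tapbp was at 128 to 280 CPM in cluster 9 and at 71.2 to 153 CPM in cluster 23. Among tuft markers, Alox5ap, which serves leukotriene synthesis, had 1710 CPM in cluster 9 and 573 CPM in cluster 23, and Gnat3, the taste G protein gustducin, 2797 and 4180 CPM. These clusters were made from the same cells, so the differences are descriptions.

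**Figure D4:**
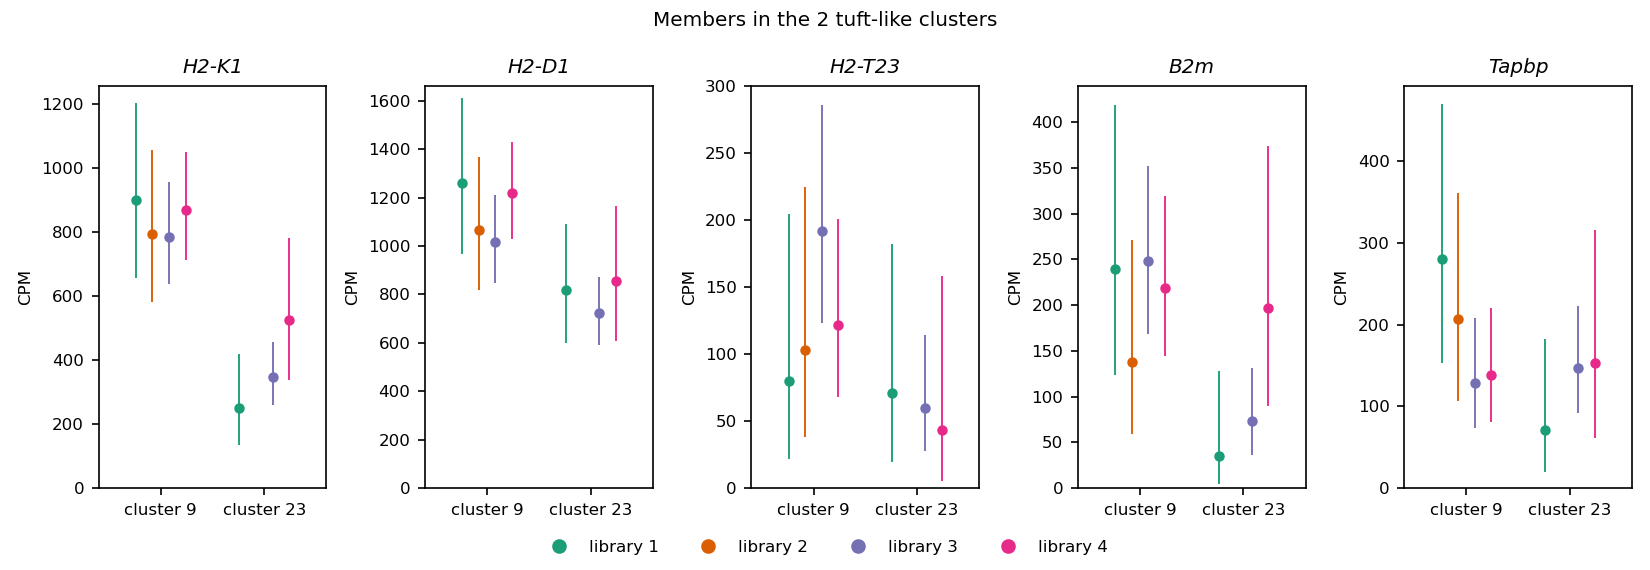
CPM of 5 members in the 2 tuft-like clusters; points are libraries with exact Poisson 95% intervals, and library 2 has 0 cells in cluster 23. H2-K1 sits between 785 and 899 CPM in cluster 9 and between 249 and 526 CPM in cluster 23, while the Tapbp points overlap.

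Ciliated-like cells were also not uniform. In the 310 cells of the shallowest ciliated-like cluster, with a median of 757.5 UMIs, H2-K1 was at 151 CPM, against 833 CPM in the largest cluster (median 1998 UMIs) and 745 CPM in the deepest (median 7545 UMIs). B2m was at 170, 321 and 249 CPM in the same clusters and Psmb8 at 41.7, 24.8 and 15.2 CPM. The shallow cluster was thus low for H2-K1, on 47 UMIs, and its Psmb8 level rests on 13 UMIs. Psmb8 fell as depth rose, whereas H2-K1 and B2m were highest in the cluster of middle depth, and the part of depth was not tested.

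Leukocyte-like cells had the highest median levels of most members, with ranges that overlapped the next class except for B2m and Psmb8. Of 9 members 7 were higher than the epithelial mean in each library and 0 were lower, beside 8.03% and 35.8% of 12511 genes. The median was 2.42 for the members and -1.09 for all genes. Depth limits these values of all genes, here and below. A gene entered with at least 50 UMIs over both sides, and nearly all of these could be epithelial. Faint genes could thus lack a UMI in the 78 leukocyte-like cells and be counted as lower. The members were not set against genes of like UMI counts, so their excess over such genes was not tested. Psmb8 was at 327, 474, 189 and 593 CPM, 19.7-fold above the epithelial mean at the median, and no epithelial class reached its lowest library value. B2m was 6.23-fold higher, H2-T23 5.36-fold, H2-D1 2.72-fold and H2-K1 2.13-fold. Psmb9 was 12.1-fold higher on 2 to 5 UMIs per library, and Tapbp 2.01-fold on 2 to 11. Tap1 and Tap2 had 0 UMIs in the 12 leukocyte-like cells of library 2, and without that library all 9 tested members were higher. That rule is looser, over the remaining libraries only, and no share of all genes is given for it.

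The leukocyte-like cells carried epithelial transcripts too. Secretory markers summed to 2024 CPM in library 2 and to 86468 to 117332 CPM in the others, and 3 erythroid markers to 20622 CPM in library 4 and 0 in the others. All 5 mast cell markers had UMIs in the macrophage- or monocyte-like cells, with a sum of 586 to 3114 CPM, and Mcpt2 was among the 10 leading genes of their cluster. The part of these transcripts in the members' levels was not tested. With a gate on marker UMIs that keeps only cells with at most 5% of secretory marker UMIs, 6 members were higher (Tapbp, at 0.55, was not). No share of all genes is given for the gate. The median log2 ratio of Psmb8 was then 4.66 in place of 4.30, that of B2m 2.97 in place of 2.64 and that of H2-K1 1.40 in place of 1.09. T cell-like cells had 1027, 2158, 1319 and 1809 CPM of H2-K1 and macrophage- or monocyte-like cells 755, 741, 586 and 1133 CPM, so T cell-like cells had more in each of the 4 libraries although the ranges overlapped. The B2m share of B2m, H2-K1 and H2-D1 UMIs was 28.9% in T cell-like cells (24.2 to 33.9) and 39.2% in macrophage- or monocyte-like cells (34.3 to 44.2). Class II genes, which show peptides to CD4 T cells, summed to 0 to 60.3 CPM in the former and to 14568 to 73028 CPM in the latter.

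The immunoproteasome was followed as the share of each inducible subunit in its pair, Psmb10 with Psmb7 being the third pair. Psmb8 made up 66.9% of Psmb8 and Psmb5 UMIs in leukocyte-like cells (57.8 to 75.2), 20.4% in hillock-like (16.8 to 24.3), 14.1% in tuft-like (9.71 to 19.5), 11.8% in secretory-like (11.3 to 12.3), 7.22% in basal-like (6.49 to 8.00) and 6.37% in ciliated-like cells (5.76 to 7.03). In each library the secretory-like share was above the basal-like and ciliated-like shares. In library 2 the secretory-like share was only 8.23%, against 11.8% to 14.0% in the others. Psmb9 made up 20.9% of its pair with Psmb6 in leukocyte-like, 11.9% in tuft-like and 1.31% to 2.57% in the other classes. Psmb10 made up 57.1% in leukocyte-like, 39.1% in tuft-like, 18.6% in ciliated-like, 16.4% in secretory-like cells and 8.76% in basal-like ones. Ciliated-like cells thus had the lowest pooled share of Psmb8, with an interval that overlapped the basal-like one, and for Psmb10 their interval (16.98 to 20.3) overlapped the secretory-like one (15.5 to 17.3) and lay above the basal-like one (7.67 to 9.94).

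**Figure D5:**
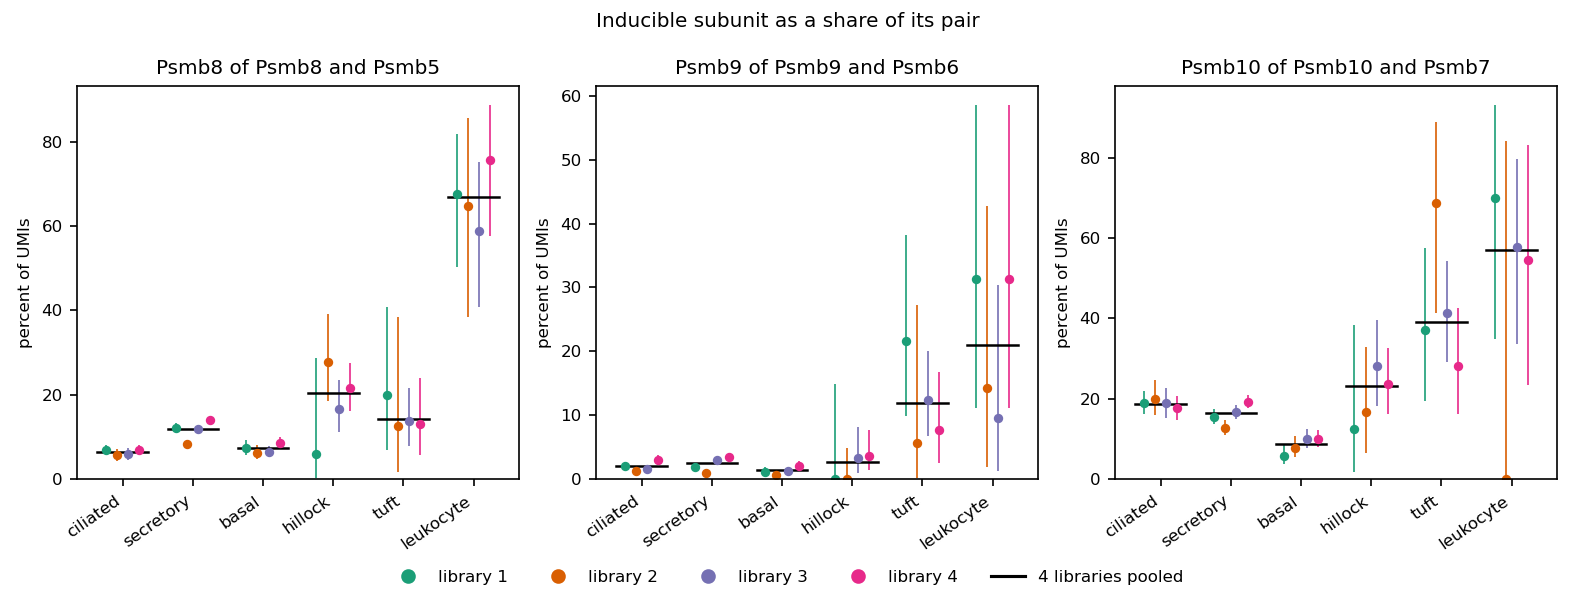
Inducible subunit as a percent of the UMIs of its pair, by cell class; points are libraries with Clopper-Pearson 95% intervals and black lines pool the 4 libraries. The leukocyte-like line stands at 66.9% for Psmb8, 20.9% for Psmb9 and 57.1% for Psmb10, and the tuft-like line is next for Psmb9 and Psmb10.

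Other genes of the pathway were read from 6 fixed lists of 69 genes, 68 of them among the features. Of 9 tested other class I and class I-like genes, 6 were higher and 1 lower in ciliated-like than in secretory-like cells, near the 69.7% and 12.5% of all genes. Mr1, which shows vitamin B metabolites of microbes to T cells, had a log2 ratio of 3.59 and H2-Q6 1.76, H2-M3 was at 0.70, and Fcgrt, the neonatal Fc receptor, was lower at -0.98. With the total that leaves out dominant genes 5 were higher and 2 lower, beside 43.8% and 31.9% of genes, and H2-M3 was no longer counted. Mr1 was also 3.44 higher than in basal-like cells, where 5 of 9 genes were higher and 0 lower, beside 48.5% and 30.7%. In tuft-like cells 0 of 10 such genes were higher, beside 26.9%. The 3 counted as lower, H2-Q6, H2-Q7 and H2-Q10, had a median of 0 CPM there, and since that limit of 3 UMIs in the tuft-like cells of 1 library is 10.9 to 51.7 CPM, a lower level was not detectable at this depth. In leukocyte-like cells 5 were higher, beside 8.03% of genes, with H2-Q7 at 4.71 and H2-Q6 at 3.95. The 3 counted as lower, Mr1, H2-Q2 and H2-Q10, again had a median of 0 CPM, where 3 UMIs are 28.4 to 129 CPM. H2-Q and H2-T genes resemble one another closely, so their counts are uncertain.

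Of 10 loading and processing genes, 8 were higher and 1 lower in tuft-like cells, beside 26.9% and 26.5% of all genes, with a list median of 0.86. Psmb10 was at 2.74, Tapbpl, a peptide editor related to tapasin, at 1.80, Lnpep at 0.72 and the chaperone Hspa5 at -0.61. Without dominant genes in the total 6 were higher and 1 lower, beside 22.6% and 29.7%, and Lnpep was no longer counted. In ciliated-like against basal-like cells 2 were higher and 6 lower, beside 48.5% and 30.7%, among them Hspa5 at -1.35 and Erap1, which trims peptides, at -1.06, while Psmb10 was at 1.21. Against secretory-like cells 5 were higher and 2 lower, beside 69.7% and 12.5%, with Psmb10 at 0.61, Calr at 0.57, Canx at -0.10 and Hspa5 at -0.30, but without dominant genes in the total 0 were higher and 7 lower, beside 43.8% and 31.9%. In basal-like against secretory-like cells 8 were higher and 1 lower, beside 63.8% and 12.9%, with Hspa5 at 1.14, Lnpep at 0.82 and Psmb10 at -0.58, against 3 and 7 without dominant genes in the total, beside 29.5% and 42%. In leukocyte-like cells 4 were higher and 0 lower, beside 8.03% and 35.8%, Psme2 and Psme1, which form the proteasome activator PA28, at 2.35 and 1.48, Calr at 0.36 and Pdia3 at 0.34, Calr being lost without dominant genes. Of 8 constitutive proteasome genes, 5 were higher and 0 lower in tuft-like cells (Psmb7 and Psmb1 at 0.88), beside 26.9% and 26.5%. Without dominant genes in the total 1 was higher (Psmb1) and 1 lower (Psma3 at -0.25), beside 22.6% and 29.7%. In leukocyte-like cells 1 was higher (Psmb1 at 0.35) and 0 lower, beside 8.03% and 35.8%. Without dominant genes 0 were higher and 1 lower there (Psmb5 at -0.49), beside 7.22% and 37.1%. In ciliated-like cells 5 were higher and 1 lower against secretory-like cells, beside 69.7% and 12.5%, and 4 and 1 against basal-like cells, beside 48.5% and 30.7%. Psmb6 was at 1.39 and 1.04 and Psmd1 at -0.39 and -0.16. The first count turned to 1 higher and 7 lower without dominant genes, beside 43.8% and 31.9%, and the second was 5 and 1, beside 48.7% and 30.6%.

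Of 21 tested regulators of class I genes, 16 were higher and 2 lower in ciliated-like than in secretory-like cells, near the 69.7% and 12.5% of all genes. Irf9, which carries interferon signals to the nucleus, was at 1.93, and Jak1 and Ifnar2 at -0.39 and -0.59. Without dominant genes in the total 13 were higher and 6 lower, beside 43.8% and 31.9%. Against basal-like cells 8 were higher and 6 lower, beside 48.5% and 30.7%. The interferon gamma receptor chain Ifngr2 was at 1.82, while Jak1 was at -1.50 and Socs1, an inhibitor of this signalling, at -1.39. In basal-like against secretory-like cells 16 were higher and 2 lower, beside 63.8% and 12.9%, with Socs1 at 3.06, Irf2 at 1.51 and Ifngr2 at -0.65, against 7 and 9 without dominant genes in the total, beside 29.5% and 42%. In tuft-like cells 3 were higher and 3 lower, beside 26.9% and 26.5%, with Ifnar2 at 2.53, Irf1 at 1.90, Rela at -1.41 and Ifngr1 at -1.54. In leukocyte-like cells 8 were higher and 2 lower, beside 8.03% and 35.8%, with Ifnar2 at 2.02 and Rela at -0.71, and Rfx5 at a median of 0 CPM.

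Of the 7 ligands and inhibitors of natural killer cells and phagocytes, 5 were tested in tuft-like cells, where 1 was higher and 3 lower, beside 26.9% and 26.5% of genes. Cd47, the signal that holds back phagocytes, was higher at 2.75. The 3 counted as lower, Raet1e, H60c and Ulbp1, are ligands of an activating natural killer receptor and had a median of 0 CPM. This is under the limit of 3 UMIs given above for tuft-like cells, so a lower level was not detectable at this depth. In leukocyte-like cells Cd274, the checkpoint ligand PD-L1, was higher at 2.41 to 4.18 over libraries. H60c was at a median of 2.75 CPM in basal-like, 0.17 CPM in secretory-like and 0 CPM in ciliated-like cells. All 6 class II genes were higher in leukocyte-like cells, beside 8.03% of genes, with H2-Eb1 at 11.2 and H2-Aa at 11.1. In tuft-like cells 0 of 3 were higher and 1 was lower, beside 26.9% and 26.5%. The latter, Cd74, was at a median of 0 CPM, again under the limit of 3 UMIs given above. The class II genes summed to 5.92 to 28.2 CPM in tuft-like cells and to 4.15 to 13.9 CPM in the 3 large classes, so no contrast to class I is read there. The 5 comparisons share the same epithelial cells, so their counts are not independent of one another.

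Between libraries, 0 to 2 members stood apart in each large class. A member was counted as apart where its highest CPM was at least 2 times its lowest and the intervals did not overlap. In ciliated-like cells these were B2m, 2.44 times higher in library 4 than in library 3, and Psmb9, 2.67 times higher in library 4 than in library 2, that is 2 of 8 members with at least 100 UMIs, beside 6.36% of 9299 genes. In secretory-like cells they were Tap2, 2.08 times, and Psmb9, 4.04 times higher in library 4 than in library 2, 2 of 9 members beside 9.66% of 10033 genes. In basal-like cells 0 of 7 members were apart, beside 8.91% of 8775 genes, and Psmb9, with a ratio of 3.71 and intervals that did not overlap, was left out by the minimum of 100 UMIs on its 72 UMIs. With 1 library a genotype, none of these differences has a replicate check.

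The libraries had an order that recurred across members. Library 4 was highest for H2-K1, H2-D1, B2m, Tap2, Tapbp, Psmb8 and Psmb9 in ciliated-like cells, beside 25.5% of genes, and for H2-K1, H2-D1, B2m, Tap2, Psmb8 and Psmb9 in secretory-like cells, beside 36.4%. Among basal-like cells it was highest for H2-D1, B2m, Tap2, Tapbp and Psmb8, beside 36.2%, and lowest for H2-K1. H2-T23 was highest in library 3 in each of these classes, with 30.6, 28.0 and 23.2 CPM, beside 34.9%, 21.6% and 16.1% of genes. Psmb9 was lowest in library 2 in each, with 5.72, 1.68 and 1.33 CPM.

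B2m was lowest in library 3 in ciliated-like, secretory-like and basal-like cells. Its share of B2m, H2-K1 and H2-D1 UMIs in that library was 11.5% in ciliated-like cells (10.6 to 12.3), against 16.2% to 18.3% in the ciliated-like cells of the other libraries. In secretory-like cells library 3 had the lowest share too, 17.3% against 18.1% to 20.1%, and in basal-like cells it had the highest share, 17.8%. Within ciliated-like cells, library 3 was lowest for B2m in the largest cluster, with 171 CPM against 276 to 389 CPM, and in the deepest, with 135 CPM against 210 to 349 CPM. The difference between classes was not tested. Basal-like cells of library 4 had an H2-D1 share of 51.1% (49.7 to 52.4), against 41.9% to 45.2% in the other libraries.

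Cells with interferon response transcripts were set against the other cells of their class. The list of 8 response genes (Isg15, Ifit1, Ifit3, Rsad2, Oasl2, Usp18, Irf7 and Cxcl10) and the rule, at least 0.1% of a cell's UMIs and at least 3 UMIs, were chosen after the data were seen, and no member is on the list. In ciliated-like cells 125 of 4757 met the rule, 34 of them with exactly 3 UMIs, while 470 of the others had 2 UMIs. B2m was at 456, 734, 271 and 638 CPM in the 125 cells of libraries 1 to 4 and at 297, 240, 142 and 353 CPM in the others, a median log2 ratio of 0.89. H2-D1 was at 0.32 and H2-K1 at 0.21, the latter with 907 against 902 CPM in library 4, inside its interval. In libraries 2 and 3 the other cells' values of both genes lay inside the intervals too. Thus 3 of 9 members were higher in each library and 0 lower, beside 4.86% and 10.2% of genes. In basal-like cells, where 359 of 5056 met the rule, 4 members were higher and 0 lower, beside 10.9% and 10.8% of genes. They were Psmb9 at 1.26 on 1 to 6 UMIs per library, Tap2 at 0.89 on 5 to 12, H2-K1 at 0.25 and H2-D1 at 0.19. The other cells' values lay inside the intervals for H2-K1 and H2-D1 in libraries 2 and 3, and for Tap2 and Psmb9 in libraries 1 to 3. Of 6364 secretory-like cells only 28 met it, 2, 3, 12 and 11 in libraries 1 to 4, and 0 members were higher or lower in each library, beside 5.92% and 19.5% of genes. H2-T23, Tap1, Tap2 and Tapbp had 0 UMIs in these cells of libraries 1 and 2, so this count says little about secretory-like cells. The 0.1% also asks for more UMIs in deeper cells, so the numbers of cells that met the rule are not comparable between classes. B2m was higher in all 4 libraries among ciliated-like cells, and in basal-like cells in libraries 1, 2 and 4 only. In basal-like cells of libraries 1 and 2 the other cells' B2m value lay inside the interval, and in library 4 it lay below it.

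The genes most like 3 of the members were taken over 28 sums of 7 classes in 4 libraries by Pearson's r of log2(CPM + 1). These values describe class differences, since the sums of a class share its cells' makeup and those of a library its depth. For H2-K1 they were Ifi47, an interferon-inducible GTPase, at 0.91, Rilpl2 at 0.87 and Psap at 0.87, and among the members H2-D1 (0.84) and B2m (0.83). For Psmb8 they included Srgn at 0.89 and C1qa at 0.87, and B2m was the most alike member at 0.82. Nlrc5, with 34 UMIs, had Txk at 0.82, Exoc3l4 at 0.81 and Aars2 at 0.73. Of the Nlrc5 UMIs, 14 fell in ciliated-like cells, where the level was 0.28, 0.64, 0.48 and 1.56 CPM, 8 in secretory-like, 2 in basal-like and 2 in leukocyte-like cells.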

How the data were processed

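Per the file headers, the deposited matrix of UMI counts for all 4 libraries was written by Cell Ranger 6.0.1. Per the submitters' processing notes, the authors used build GRCm39. The gene models used are not given in the sources used here. As deposited the counts were raw, and no count table was tied to a genotype. The members, gene lists and tests were chosen with earlier results of these data known. Cells with at least 300 genes and at most 20% mitochondrial UMIs were kept. The highest-scoring simulated-doublet neighbours were removed at 0.8% per 1000 cells. Clustering used scanpy 1.11.5 and leidenalg 0.10.2 (Python 3.11.15) with 2000 variable genes, 30 components, 15 neighbours and resolution 1. The members and the other pathway genes were left out of it. Mixed clusters of under 500 cells were clustered again. A cluster took a name with at least 3 markers up, each in at least 10% of its cells and 1 log2 unit above the 25th percentile of clusters, and was mixed where another lineage had 75% of its markers up. UMIs were summed by class and library, and ratios used a pseudocount of 1 CPM and genes with at least 50 UMIs. Free RNA was not subtracted. Named genes outside the members were the 2 highest and 2 lowest ratios of each list among those counted, and some that this rule names are not reported here. Promoters were matched by symbol for 8 of 10 members. Scripts were tested on simulated data. Alternatives changed the total, depth, pseudocount, filters, classes and libraries.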

Additional observations from a re-analysis of the deposited data

How the results depend on the processing

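Counts of members higher in 4 of 4 libraries moved in most comparisons when the total or the depth changed. Shares of all genes are given above for the change of total, and for no other alternative. With the total that leaves out dominant genes, 3 members were higher in ciliated-like against secretory-like cells and 0 in basal-like against secretory-like cells. It also turned H2-T23 to -0.36 in the first comparison and H2-K1 to -0.59, H2-D1 to -0.49 and Tap2 to -0.58 in the second. Cells with at least 3000 UMIs gave 4 members in the first comparison and 4 in tuft-like cells. Thinning to 1000 UMIs gave 4 in tuft-like and 4 in leukocyte-like cells, where Tapbp turned to -2.49 on few UMIs. The marker gate gave 3 in basal-like against secretory-like cells and 1 member apart between libraries in secretory-like cells. A ratio of at least 1.5 gave 4 members apart among secretory-like cells and 3 among basal-like cells. Leaving out each library in turn gave 1 to 3 members higher in basal-like against secretory-like cells, 3 being reached without library 4. The rule is then looser, and no share of all genes is given for it. Leaving out libraries also gave 1 to 2 members apart in ciliated-like cells (without library 3 only Psmb9, without library 4 only B2m) and 1 to 2 in secretory-like cells (without library 2 or 4 only Psmb9). Ciliated-like against basal-like cells kept counts of 7 to 8 under every alternative run. Of 630 values of single members under alternatives, 578 kept their call or stayed without one, 28 lost the call, 19 gained it and 5 turned with a call before or after. Of the 578, 11 changed sign without a call in either setting, such as Tap1 in basal-like against secretory-like cells, from 0.18 to -0.36 with the total that leaves out dominant genes. The cause of these changes was not tested. Depth limits Tap1, Tap2, Psmb9 and Nlrc5 in tuft-like and leukocyte-like cells. No paired analysis was possible because each genotype had 1 library and no label gives replicate numbers, so this concerns genotypes only, and ratios between cell classes were taken within each library.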

Other observations

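Clusters that stayed mixed or unnamed were used in no comparison. In 17 cells of a mixed cluster led by Ccl5, Cxcl10 and Ifit1, H2-K1 was at 359 CPM, H2-D1 at 339 CPM and B2m at 211 CPM, and Psmb8 at 49.1 CPM on 10 UMIs. The 40 ionocyte-like cells had 981, 596, 478 and 1625 CPM of H2-K1 in libraries 1 to 4.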
